A study of Mus musculus with 19 samples.

Results

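Heat shock proteins and their partner chaperones were followed through single cells of the mouse medial amygdala. The 85 members were chosen by gene symbol, with no use of measured values, from the 16233 genes of the table of all cells. They take in the HSP70 family (Hspa), the HSP110 proteins (Hsph1, Hspa4 and Hspa4l), HSP90 (Hsp90), small heat shock proteins (Hspb), the mitochondrial chaperonin (Hspd1 and Hspe1), J-proteins (Dnaja, Dnajb and Dnajc), the cytosolic chaperonin (Tcp1 and Cct), the Bag proteins, Hspbp1, Hspbap1, the co-chaperones Ahsa1 and Stip1, and the transcription factor Hsf1. J-proteins made up 40 of the 85, in groups of 4, 11 and 25. Members held 385849 of 35709950 unique molecular identifiers (UMIs, the counts of captured transcripts), a share of 1.08%. The table that compares dissociations held 83 members among 15299 genes, at 1.13% of UMIs.

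Chaperones bind unfolded stretches of other proteins and keep them from clumping while they fold. HSP70 does this in cycles of ATP use, J-proteins bring it substrates, and HSP110 and Bag proteins release its ADP. HSP90 acts later on kinases and receptors, the cytosolic chaperonin folds actin and tubulin in a closed chamber, and small heat shock proteins hold unfolded proteins without ATP. Under heat, oxidation or mechanical insult, HSF1 forms trimers that bind repeats of the unit GAA and its complement TTC near the starts of inducible genes. Hspa1a and Hspa1b respond most sharply and are low in unstressed brain, whereas Hspa8 and Hsp90ab1 serve housekeeping folding. Hspa5, Hsp90b1, Dnajb9 and Dnajc3 work in the endoplasmic reticulum, whose own stress response is run by other factors.

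Cells came from male C57BL/6J mice and were counted by Drop-seq, which catches single cells in droplets with barcoded beads. Act-Seq, a dissociation protocol built to limit transcription while tissue is taken apart, gave 17 libraries: 6 from naive control mice, 1 from saline-injected controls (numbered 7), 2 from seizure-affected mice, 4 from mice acutely stressed by immobilization and 4 from mice acutely exposed to odors. A conventional dissociation gave 1 library from saline-injected controls and 1 from seizure-affected mice. Mice were 8 weeks old except in seizure 1, immobilization 2 and 3 and odor 1 and 2, where they were 9 weeks old, and no naive library came from the older mice. Whether 2 libraries of a group come from different mice is not stated in the labels, and a p-value here therefore speaks only of the scatter among libraries, part of which may be technical. The labels used here name neither the agent that caused seizures nor the odors.

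Act-Seq libraries of the first table held 43 to 2189 cells and 116492 to 3723521 UMIs, and the 5 libraries of the dissociation table held 1123 to 2010 cells and 2102364 to 4309887 UMIs. UMIs were added up within each library and class, and combinations of fewer than 10 cells were dropped, which left naive 6 in no class. Levels are in CPM, the count of a gene scaled to a total of 1000000 UMIs in that library and class, and were compared between classes or groups for 1 gene at a time. Classes were the authors' own, with the cells of the authors' neuron table as neurons and other cells of the neuron class apart. Cells labelled neuron went partly against their label: summed astrocyte markers stood at 9839 to 15181 CPM in naive libraries, beside 3789 to 17675 CPM of neuron markers, and in the other cells of the neuron class astrocyte markers reached 15362 to 17508 CPM. Precursors also held oligodendrocyte markers. In immobilization 1 and 2 these summed to 23142 and 16217 CPM in precursors, beside 9630 and 10059 CPM of precursor markers. In the dissociation table, which carries no classes, cells were clustered without the members and named from marker genes. All 1777 and 1123 cells of seizure 1 and 2 in that table are also in the first table with identical counts, so both tables share the seizure libraries. By the authors' labels of these shared cells, a cluster led by Kif5a held 368 cells of the neuron table and 603 others of the neuron class. The cluster named neuron held 95 and 85 of them, so clustered neurons are not the neurons of the first table.

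Promoter windows of 6 members known to be inducible or called in a comparison are shown first, chosen because they hold the letters that HSF1 is known to bind. RefSeq start-site windows of 300 bases (build GRCm38.p6, 250 before to 50 after the start) were found for 70 of 85 members, in 90 windows. The paired unit GAANNTTC or TTCNNGAA, each of which reads the same on both strands, occurred in 21 of the 90 windows, a share of 23.3%, against 15.1% of all 32851 windows. The triple unit GAANNTTCNNGAA, or TTCNNGAANNTTC on the opposite strand, which holds the paired unit within it, occurred in 6 windows, or 6.67%, against 0.603% of all windows. Those 6 windows are overlapping windows of Dnajb6, overlapping windows of Hsph1, and the overlapping windows of Hspd1 and Hspe1. The same bases are therefore counted more than once, and windows of all genes were counted in the same way. A match describes letters and does not show that HSF1 binds there. Capitals below mark paired and triple units. The windows shown are those of the near-identical pair Hspa1a and Hspa1b (chr17:34972107-34972406 and chr17:34959189-34959488, both minus strand), of Dnajb4 (chr3:152193796-152194095, minus strand), of Hspb3 (chr13:113663627-113663926, minus strand), of Hsph1 (chr5:149636266-149636565, minus strand) and of Hspe1 (chr1:55087898-55088197, plus strand).
Hspa1a: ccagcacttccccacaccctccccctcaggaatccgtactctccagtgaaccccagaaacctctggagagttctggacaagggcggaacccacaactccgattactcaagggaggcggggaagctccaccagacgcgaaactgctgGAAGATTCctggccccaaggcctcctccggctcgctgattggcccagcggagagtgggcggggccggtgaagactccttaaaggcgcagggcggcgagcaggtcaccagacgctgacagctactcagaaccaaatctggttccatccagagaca
Hspa1b: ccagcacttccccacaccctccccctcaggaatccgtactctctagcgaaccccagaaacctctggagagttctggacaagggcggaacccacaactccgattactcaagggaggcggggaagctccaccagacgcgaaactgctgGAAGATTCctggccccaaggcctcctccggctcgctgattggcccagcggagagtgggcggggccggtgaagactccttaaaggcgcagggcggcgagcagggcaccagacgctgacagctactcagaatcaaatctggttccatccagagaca
Dnajb4: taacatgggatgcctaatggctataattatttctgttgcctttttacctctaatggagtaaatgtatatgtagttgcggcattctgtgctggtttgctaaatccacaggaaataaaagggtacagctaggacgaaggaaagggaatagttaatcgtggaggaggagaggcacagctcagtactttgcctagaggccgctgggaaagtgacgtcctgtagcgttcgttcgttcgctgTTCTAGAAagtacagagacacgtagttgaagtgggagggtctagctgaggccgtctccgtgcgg
Hspb3: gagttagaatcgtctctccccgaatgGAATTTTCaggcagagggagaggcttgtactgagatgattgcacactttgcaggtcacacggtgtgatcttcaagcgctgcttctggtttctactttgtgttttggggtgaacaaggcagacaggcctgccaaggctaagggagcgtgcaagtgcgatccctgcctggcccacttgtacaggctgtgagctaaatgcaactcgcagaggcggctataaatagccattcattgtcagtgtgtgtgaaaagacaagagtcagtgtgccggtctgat
Hsph1: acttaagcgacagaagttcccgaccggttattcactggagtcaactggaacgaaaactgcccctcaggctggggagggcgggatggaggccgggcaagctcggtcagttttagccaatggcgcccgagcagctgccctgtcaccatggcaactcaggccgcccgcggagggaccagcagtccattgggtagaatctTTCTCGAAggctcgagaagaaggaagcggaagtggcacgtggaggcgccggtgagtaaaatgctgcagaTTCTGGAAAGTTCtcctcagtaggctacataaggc
Hspe1: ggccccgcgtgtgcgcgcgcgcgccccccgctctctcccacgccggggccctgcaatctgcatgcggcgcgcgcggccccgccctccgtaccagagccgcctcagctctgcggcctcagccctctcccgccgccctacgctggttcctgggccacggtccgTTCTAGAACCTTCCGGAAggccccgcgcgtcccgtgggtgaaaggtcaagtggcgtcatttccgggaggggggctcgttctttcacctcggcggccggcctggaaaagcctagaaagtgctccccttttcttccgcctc
The Hspa1a and Hspa1b windows differ at 4 of 300 bases and each hold 1 paired unit. The genes themselves (chromosome 17, 34969190 to 34972156 and 34956436 to 34959238, minus strand) code for nearly the same protein, so reads of one may have been counted to the other, and their split is uncertain. Where strand is not used in counting, reads of Hspa1a also cannot be told apart from those of Gm20481, which lies antisense to it over 2225 bases, nor reads of Hspb2 from those of Cryab over 1030 bases. Hspe1 and its neighbour Hspd1 are divergent genes whose windows overlap and share a run of 3 paired units that make up 2 triple units. The Hsph1 window holds 3 paired units and 1 triple unit, and the other Dnajb4 window, from another start site, holds neither. The windows of Dnajb1, Dnajb9 and Bag1, members that were called in a comparison, hold neither unit and are not shown.

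In unstressed tissue most chaperones were spread over all classes, and a minority marked 1 class. Of the 85 members, 79 reached a mean of 20 CPM in some class of naive libraries; for this ranking of 7 classes the other cells of the neuron class were left out. In 14 of these the highest class mean was at least 2-fold above that of any other class, against 30.5% of all genes at that level, and in 9 every naive library of that class lay above every library of the other classes, against 17.9% of genes. Oligodendrocyte precursors held the highest mean for 26 of the 79 (22% of all genes), mural cells for 15 (15.8%), neurons for 12 (14.2%), endothelial cells for 9 (13%), astrocytes and oligodendrocytes for 6 each (9.64% and 8.35%) and microglia for 5 (17%). The members' summed share of UMIs ran from 0.953% ± 0.0904 in microglia and 0.954% ± 0.112 in astrocytes to 1.40% ± 0.146 in precursors and 1.44% ± 0.328 in oligodendrocytes (SD, n = 5 naive libraries). With the 4 naive libraries of at least 300 cells, 62 of the 79 members kept the same highest class. The summed shares overlap between neighbours in that order, and class levels are given as descriptions with no test. All means that follow are over 5 naive libraries, or 4 for mural cells, with SD.

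**Figure D1:**
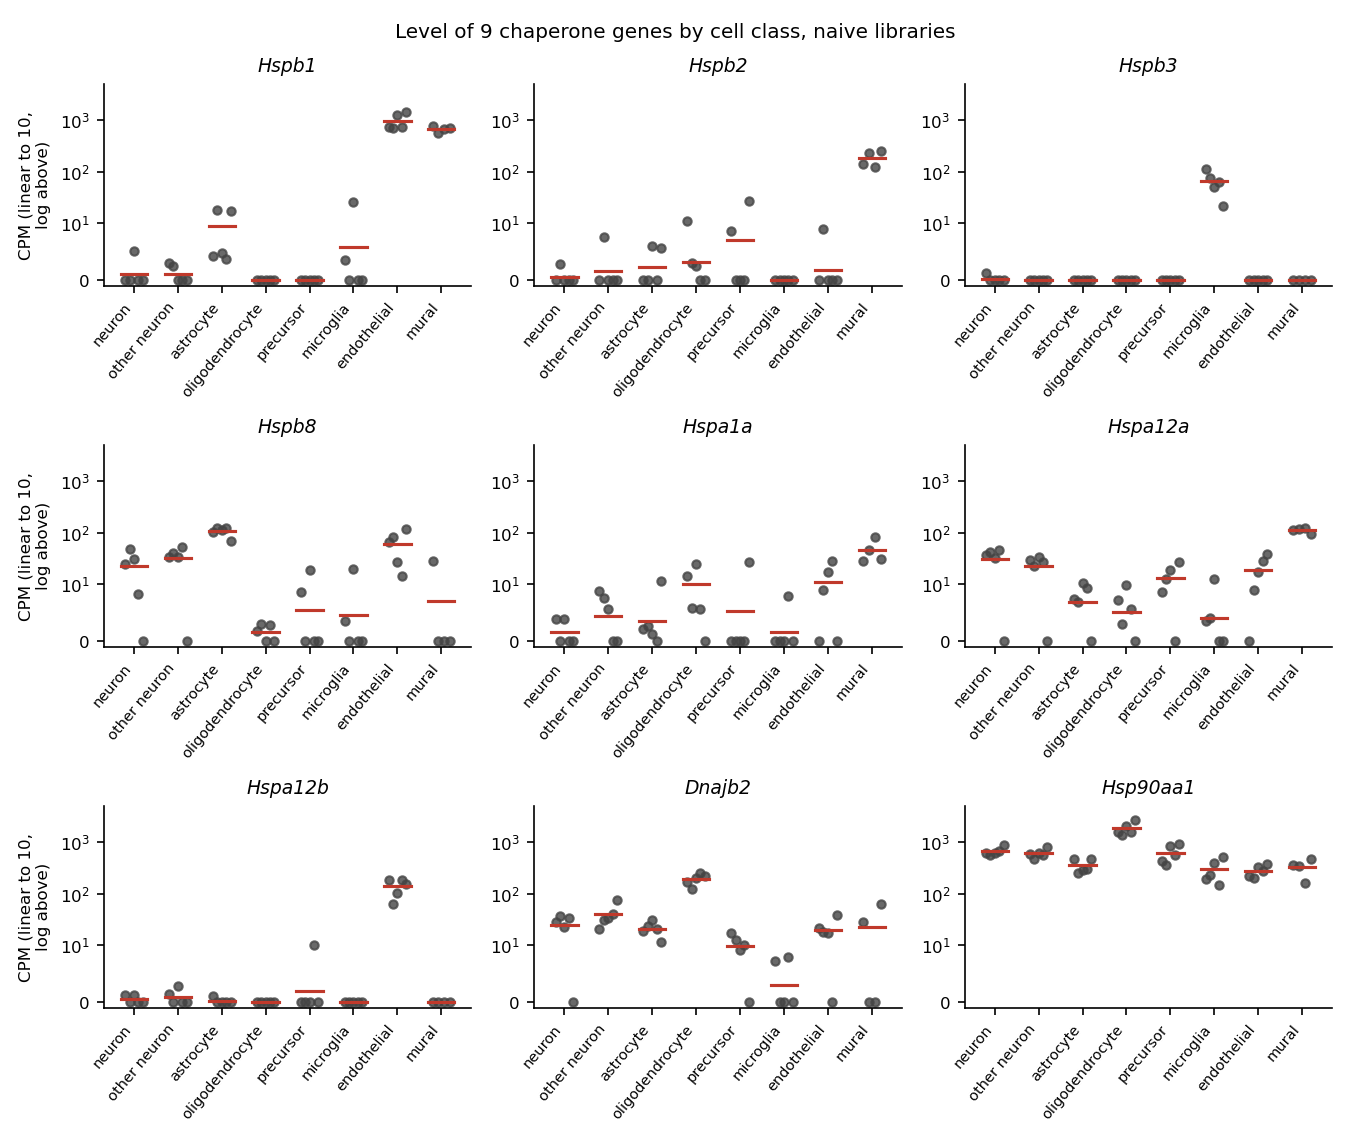
CPM of 9 members in naive libraries by cell class; each point is 1 library, red bars are means, and the axis is linear to 10 CPM and logarithmic above. Hspb1 is high in endothelial and mural cells, Hspb2 in mural cells, Hspb3 in microglia and Hspa12b in endothelial cells, with most other libraries at or near 0, whereas Hsp90aa1 is high in every class and highest in oligodendrocytes.

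Among HSP70 proteins, the housekeeping Hspa8 stood at 755 ± 175 CPM in precursors, 723 ± 173 CPM in oligodendrocytes and 438 ± 65.3 CPM in neurons. Hspa5 (BiP), the HSP70 of the endoplasmic reticulum, stood at 1063 ± 296 CPM in precursors, 915 ± 88.5 CPM in microglia and 527 ± 245 CPM in neurons. The mitochondrial Hspa9 (mortalin) ran from 99.6 ± 58.4 CPM in microglia to 215 ± 104 CPM in mural cells. For all 3 of these the libraries of the leading class overlapped those of other classes. Hspa2, known for its role in sperm formation in mice, was at 250 ± 47.6 CPM in astrocytes and 231 ± 111 CPM in mural cells, against 11.4 ± 10.1 CPM in microglia. The most class-bound of the family was Hspa12b, a distant HSP70 relative known in endothelium, at 189, 63.1, 105, 186 and 157 CPM in endothelial cells of naive 1 to 5. Every other class had a mean of at most 2.01 CPM of it. Its sister gene Hspa12a was at 111 ± 12.1 CPM in mural cells and 31.3 ± 18.3 CPM in neurons.

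The inducible pair was near the detection limit in every class of naive libraries. Hspa1a stood at 28.1, 46.7, 81.4 and 31.4 CPM in mural cells of naive 1 to 4, from 6 UMIs in all, and at 11.0 ± 12.2 CPM in endothelial cells, from 5 UMIs. In microglia it was at 1.58 ± 3.53 CPM, from a single UMI in naive 4. Hspa1b had no UMI in naive microglia and mural cells, and its highest mean, in oligodendrocytes, was 7.29 ± 11.1 CPM. Its regulator Hsf1 was at 58.6 ± 19.4 CPM in mural cells, 45.6 ± 25.6 CPM in endothelial cells and 7.92 ± 5.26 CPM in neurons, on 8, 22 and 22 UMIs. Hsph1, the inducible HSP110 protein, was at 199 ± 104 CPM in neurons, 155 ± 54.1 CPM in precursors and 40.5 ± 26.1 CPM in microglia.

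Oligodendrocytes stood out for cytosolic HSP90. Hsp90aa1, the inducible form, was at 1627, 1379, 2126, 1602 and 2784 CPM in oligodendrocytes of naive 1 to 5, and at 675 ± 130 CPM in neurons, the next class. Each of those oligodendrocyte libraries was above every library of every other class. Hsp90ab1, the constitutive form, was at 3935 ± 1413 CPM in oligodendrocytes, 2966 ± 647 CPM in endothelial cells and 1196 ± 228 CPM in microglia, and the first 2 overlapped. Hsp90b1, the HSP90 of the endoplasmic reticulum, had its highest mean in microglia (1704 ± 315 CPM), overlapping precursors (1636 ± 609 CPM). Of the co-chaperones, Ahsa1, which speeds ATP use by HSP90, was at 199 ± 122 CPM in mural cells and 182 ± 46.1 CPM in oligodendrocytes. Stip1, which links HSP70 to HSP90, was at 252 ± 89.8 and 200 ± 109 CPM in the same classes.

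Among small heat shock proteins, Hspb1 marked vessel cells, Hspb2 mural cells and Hspb3 microglia. Hspb1 (HSP27) stood at 732, 721, 1295, 745 and 1472 CPM in endothelial cells of naive 1 to 5 and at 785, 561, 692 and 722 CPM in mural cells of naive 1 to 4. Both vessel classes were far above astrocytes, the next class, at 9.44 ± 7.16 CPM. Hspb2, known as a binding partner of the kinase DMPK in muscle, was at 140, 234, 122 and 251 CPM in mural cells of naive 1 to 4, with at most 7.03 CPM in the mean of any other class. Hspb3, known as the partner of Hspb2 in muscle, was in microglia: 111, 76.1, 51.1, 63.2 and 21.2 CPM in naive 1 to 5. In naive libraries the only Hspb3 UMI outside microglia was 1 in neurons. Hspb8, which works with Bag3 in selective autophagy, was at 106 ± 23.1 CPM in astrocytes and 60.9 ± 41.9 CPM in endothelial cells, and their libraries overlapped. Hspb6 (HSP20), at 23.1 ± 35.0 CPM, led the neuron list through naive 5 alone, with 85.2 CPM against 2.85 to 13.99 CPM.

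The chaperonins were highest in precursors by small margins. All 8 cytosolic chaperonin subunits that reached 20 CPM, and both mitochondrial subunits, had their highest mean there. Cct8 was at 265 ± 48.1 CPM in precursors and 183 ± 57.8 CPM in mural cells, Cct2 at 178 ± 41.0 CPM against 148 ± 20.1 CPM in neurons, and Tcp1 at 185 ± 50.3 CPM against 147 ± 52.3 CPM in oligodendrocytes. Hspd1 (HSP60) was at 333 ± 77.6 CPM in precursors and 274 ± 46.4 CPM in neurons, and its lid Hspe1 (HSP10) at 359 ± 36.7 and 339 ± 31.3 CPM. For none of these 5 did every precursor library lie above every library of the other classes. The part of the oligodendrocyte markers that precursors held was not tested.

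J-proteins, which choose the clients of HSP70, were divided among classes. Dnajb2, a J-protein with ubiquitin-binding motifs, was at 171, 126, 202, 249 and 219 CPM in oligodendrocytes of naive 1 to 5, against 39.7 ± 20.7 CPM in the next class. Dnajc6 (auxilin), which strips clathrin from vesicles at synapses, was at 110 ± 17.0 CPM in neurons and had no UMI in naive endothelial cells. Dnajc10, a disulfide reductase of the endoplasmic reticulum, was at 316 ± 97.8 CPM in endothelial cells and 148 ± 105 CPM in mural cells. Dnajb9, which restrains the stress sensor IRE1, was at 162 ± 18.5 CPM in astrocytes and 96.3 ± 13.8 CPM in endothelial cells. Dnajc19, of the mitochondrial import motor, was at 205 ± 66.3 CPM in oligodendrocytes and 141 ± 89.0 CPM in the other cells of the neuron class. Dnajb1, the main J-protein of the heat shock response, was at 83.1 ± 37.4 CPM in mural cells, 62.0 ± 31.2 CPM in precursors and 14.7 ± 7.37 CPM in astrocytes. Its relative Dnaja1 was at 471 ± 75.9 CPM in precursors and 147 ± 48.1 CPM in microglia. Dnajc3, first known as an inhibitor of the kinase PKR, was at 297 ± 73.3 CPM in endothelial cells, 296 ± 20.5 CPM in astrocytes and 110 ± 41.3 CPM in precursors. Others that led a class by smaller ratios were Dnajb11 and Dnajc12 in precursors (224 ± 169 and 28.01 ± 25.7 CPM), Dnajc7 in microglia (303 ± 44.5 CPM), and Dnajc27 and Dnajc30 in neurons (95.1 ± 20.8 and 70.7 ± 56.3 CPM). The Dnajc30 lead rests on naive 5, at 170.4 CPM from 10 neurons; the other naive libraries held 34.1 to 57.7 CPM in neurons and 39.4 to 77.3 CPM in oligodendrocytes. In the other cells of the neuron class these were Dnajc15, Dnajb14 and the HSP70-binding Hspbp1 (83.0 ± 58.9, 153 ± 51.3 and 77.1 ± 42.7 CPM). The leads of Dnajc15 and Hspbp1 there also rest on naive 5, at 186.7 and 149.3 CPM. In the other naive libraries Dnajc15 was at 44.5 to 70.5 CPM against 61.9 to 75.0 CPM in neurons, and Hspbp1 at 35.5 to 70.5 against 45.4 to 74.6 CPM.

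Of the Bag proteins, Bag1 was at 414 ± 176 CPM in neurons and 65.3 ± 36.7 CPM in oligodendrocytes. Bag3, the inducible member of the family, was at 81.8 ± 108 CPM in mural cells, where naive 3 reached 244 CPM, and at 30.5 ± 3.79 CPM in astrocytes. Bag5, a regulator of HSP70 with several BAG domains, was at 114 ± 33.9 CPM in endothelial cells and 58.3 ± 39.8 CPM in neurons.

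Seizure, immobilization and odor exposure were then compared in each class with naive libraries and with each other, to see which members differed with these stimuli in cells prepared by Act-Seq. Over 6 comparisons of 438 member-class pairs each, edgeR's quasi-likelihood test (Benjamini-Hochberg adjustment over all genes of a class) called 1 pair. Of the 85 members, 78 were tested in at least 1 class. These pairs come from 1 fit per class, and comparisons with naive libraries share those libraries. No pair passed after seizure against naive, where 0.278% of all gene-class pairs did, and DESeq2 called 0. At an unadjusted p under 0.05 there were 18 (13 higher), against 4.85% of all pairs, and the lowest adjusted p was 0.258, for Bag1 in astrocytes (log2 0.61). Immobilization against naive gave 1 call (0.782% of all pairs) and 21 pairs (6 higher) at an unadjusted p under 0.05 (6.74%). Odor against naive gave 0 (0.253%; DESeq2 0) and 31 pairs (26 higher; 6.21%), with a lowest adjusted p of 0.0644.

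Between stimuli no member passed. Seizure against immobilization gave 0 calls (0.122% of all pairs; DESeq2 0) and 15 pairs at an unadjusted p under 0.05 (4.48%). Seizure against odor gave 0 calls (0.205%; DESeq2 1) and 20 pairs (5.13%), of which 4 were higher after seizure. Immobilization against odor gave 0 calls (0.0946%; DESeq2 0) and 42 pairs (4%), of which 5 were higher after immobilization. The median log2 change over all pairs ran from -0.08 for immobilization against odor to 0.09 for odor against naive.

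**Figure D2:**
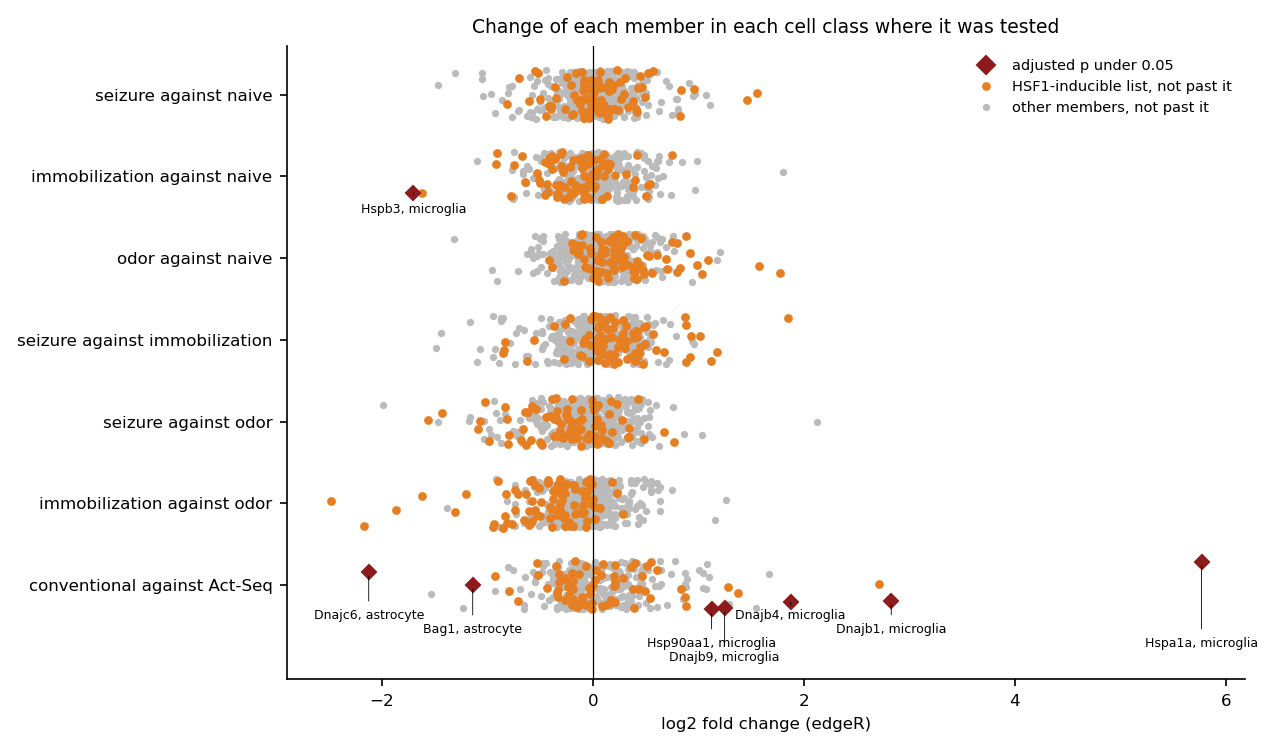
Log2 fold change of every member in every class where it was tested (each point is 1 member in 1 class), for 6 comparisons of Act-Seq groups and for conventional against Act-Seq dissociation, where the cluster led by Kif5a is not drawn. Dark red diamonds mark the 8 pairs past an adjusted p of 0.05, of which 1 lies among the Act-Seq groups, and orange points mark the 15 members known to be induced by HSF1.

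The 1 call was Hspb3 in microglia (chromosome 13, 113662896 to 113663676, minus strand). After immobilization it stood at 23.8, 25.5, 22.4 and 0 CPM in libraries 1 to 4, after odor at 68.6, 68.8, 52.6 and 28.1 CPM, and after seizure at 38.4 and 17.8 CPM. Against the naive values of 111, 76.1, 51.1, 63.2 and 21.2 CPM, the immobilization libraries were low, but naive 5, on 1 UMI, lay among them. The fall after immobilization was 1.70 on the log2 scale (SE 0.42), a fold of 0.308, with an edgeR adjusted p of 0.0120, and 1.46% of genes were called in microglia. After seizure and after odor the log2 values were -1.31 (SE 0.49, edgeR adjusted p 0.551) and -0.32 (SE 0.35, adjusted p 0.994). Among the clustered microglia of the dissociation comparison, Hspb3 was at 89.7 CPM in saline 7 and at 47.2 and 14.1 CPM in seizure 1 and 2. The conventional saline and seizure libraries there held 15.4 and 9.5 CPM. The call rests on 147 UMIs in 120 cells over the whole table. It was lost without naive 1 (log2 -1.39, adjusted p 0.201), without immobilization 1 (-1.73, 0.0716), without immobilization 3 (-1.68, 0.0535) and with DESeq2 (-1.67, 0.144). Summed microglia markers were at 50394 to 54486 CPM after immobilization and 48630 to 57498 CPM in naive libraries, and summed macrophage markers at 408 to 2111 and 148 to 965 CPM; their part in the result was not tested.

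The members known to be induced by HSF1 were also counted as a list, with no test of the list. It holds 15 members (Hspa1a, Hspa1b, Hspa8, Hsph1, Hspa4l, Hsp90aa1, Hsp90ab1, Hspb1, Hspd1, Hspe1, Dnaja1, Dnajb1, Bag3, Ahsa1 and Stip1), tested in 87 pairs, and none of these passed in any comparison. At an unadjusted p under 0.05, 15 pairs were higher and 0 lower after odor against naive (median log2 0.22), where 6.21% of all gene-class pairs had such a p. Against odor, 27 pairs were lower and 0 higher after immobilization (median -0.32; 4% of all pairs), and 9 were lower and 0 higher after seizure (median -0.20; 5.13%). These 3 comparisons share the same 4 odor libraries and are not independent of each other. The pairs within a comparison are not independent either, because all members and all classes come from the same libraries. Their counts beside the share of all pairs are therefore descriptions. After immobilization against naive 8 were lower and 0 higher (median -0.11; 6.74%), and after seizure against naive 5 were higher and 0 lower (median 0.02; 4.85%). Oligodendrocytes held 11 of the 27 pairs of immobilization against odor, out of 13 tested there, where 4.12% of all genes had such a p.

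**Figure D3:**
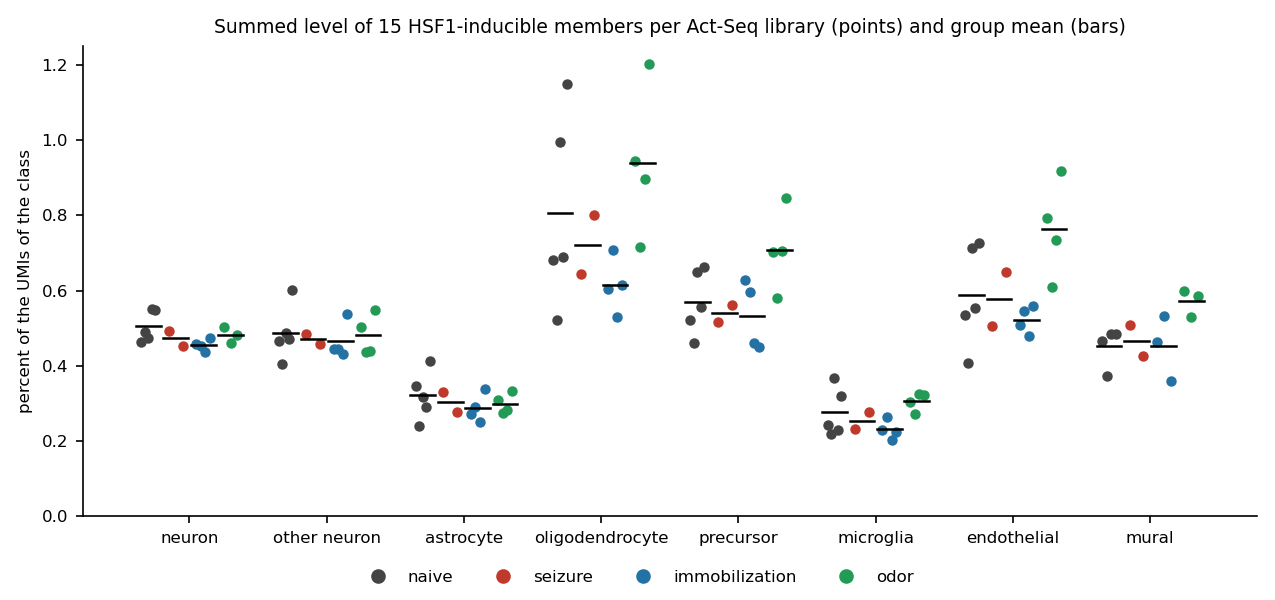
Summed level of the 15 members induced by HSF1 as a percentage of the UMIs of each class. Each point is 1 library and bars are group means. In oligodendrocytes Hsp90ab1 and Hsp90aa1 are the largest parts of the sum. In oligodendrocytes the odor libraries run from 0.716% to 1.201% and the immobilization libraries from 0.528% to 0.707%, without overlap, while naive libraries span both; in neurons and astrocytes the groups lie over each other.

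In oligodendrocytes the summed level of this list was 6046, 7072, 5284 and 6149 CPM after immobilization in libraries 1 to 4 and 9445, 7161, 8958 and 12009 CPM after odor. Naive 1 to 5 were at 6807, 5228, 9951, 6892 and 11480 CPM and seizure 1 and 2 at 6425 and 8014 CPM. Odor and immobilization libraries did not overlap, and naive libraries overlapped both. The largest parts of this sum were Hsp90ab1 and Hsp90aa1, at 2896 and 1220 CPM in immobilization 1 and 4570 and 1882 CPM in odor 1. Hspa1a in oligodendrocytes stood at 60.9, 28.7, 39.9 and 53.9 CPM after odor in libraries 1 to 4. In naive 1 to 5 it was at 14.4, 5.87, 24.6, 5.67 and 0 CPM, after immobilization at 17.5, 8.90, 2.05 and 0 CPM, and in seizure 1 and 2 at 8.36 and 63.4 CPM. All odor libraries, of either age, were above all naive and immobilization libraries, and seizure 2 was above them too. The log2 difference between odor and naive was 1.78 (SE 0.47) and missed the threshold (edgeR adjusted p 0.0644), as did immobilization against odor (-2.17, SE 0.52, adjusted p 0.235).

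Hsph1 in oligodendrocytes was at 291, 212, 237 and 413 CPM after odor and at 120, 106, 249, 116 and 156 CPM in naive 1 to 5. Naive 3 lay among the odor libraries, and the log2 difference of 0.92 (SE 0.25) did not pass (edgeR adjusted p 0.0753). In endothelial cells Hspa8 was at 1269, 992, 1008 and 1290 CPM after odor, at 660, 361, 823, 516 and 667 CPM in naive libraries, at 587, 572, 550 and 708 CPM after immobilization, and at 415 and 603 CPM after seizure. Every odor library was above every other library. The log2 differences were 0.83 (SE 0.21, edgeR adjusted p 0.297) for odor against naive and -1.09 (SE 0.28, adjusted p 0.0621) for seizure against odor, so neither passed. Summed erythrocyte markers in endothelial cells ran from 0 to 19398 CPM after odor, 3572 to 29318 CPM in naive libraries and 2825 to 88796 CPM after immobilization, and their part was not tested.

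**Figure D4:**
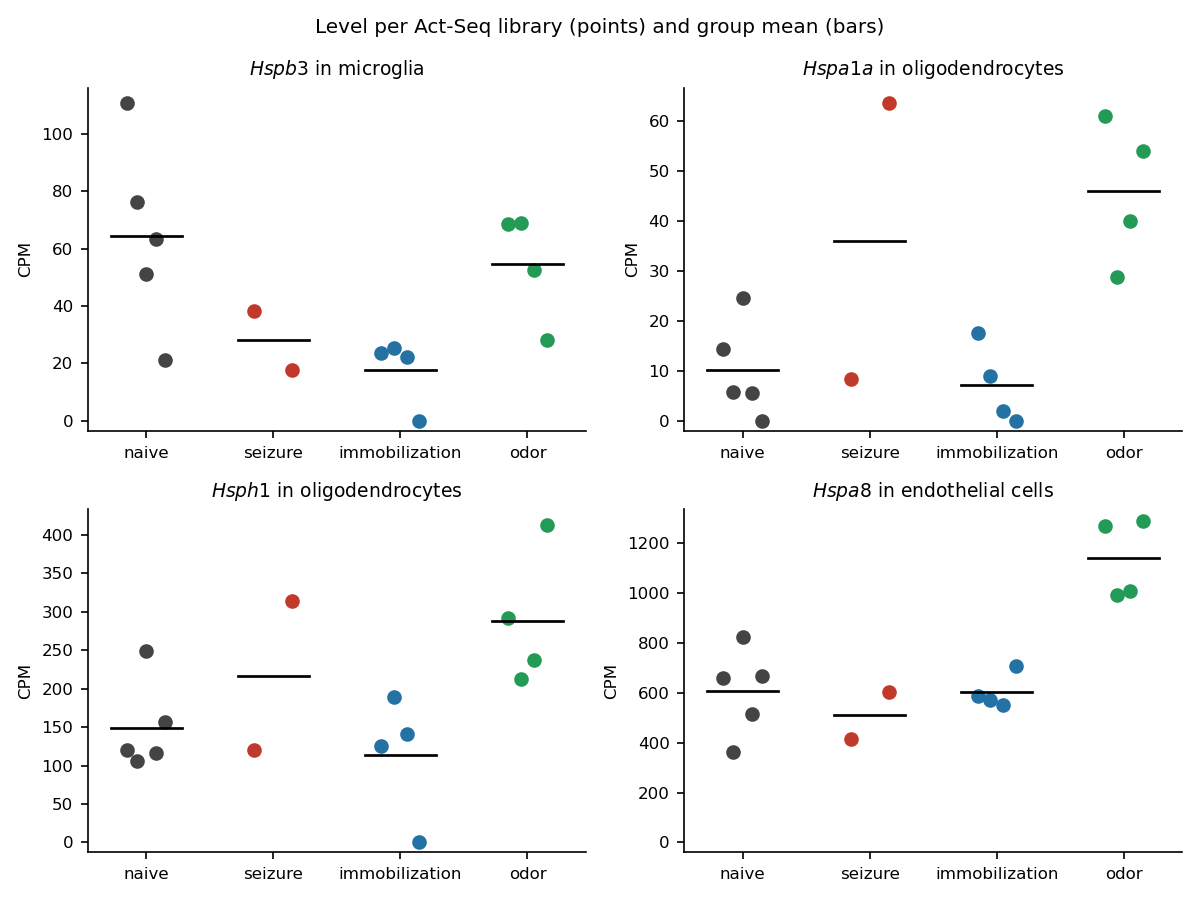
CPM of Hspb3 in microglia, Hspa1a and Hsph1 in oligodendrocytes and Hspa8 in endothelial cells by group; each point is 1 library and bars are group means. Hspb3 is at most 25.5 CPM in the 4 immobilization libraries, and Hspa1a and Hspa8 are higher in every odor library than in any naive library, though neither passed the test.

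Other genes of protein folding, a list of 40 non-members, was read in the same fits. After immobilization against naive, 2 of 267 pairs rose and 3 fell, where 0.782% of all gene-class pairs were called. Herpud1, a membrane protein of endoplasmic reticulum quality control, rose in astrocytes (log2 0.82, SE 0.17, edgeR adjusted p 0.00299) and in endothelial cells (1.17, SE 0.28, adjusted p 0.0173). Among those that fell, in astrocytes, were the lectin chaperone Calr, by 0.60, and its partner Pdia3, by 0.51 on the log2 scale. After odor Herpud1 rose in astrocytes (0.77, SE 0.17, edgeR adjusted p 0.0153) as the 1 call, where 0.253% of all gene-class pairs were called. Seizure against naive and the comparisons between stimuli gave 0 of 267.

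Conventional dissociation was compared with Act-Seq over 5 libraries, saline 7, seizure 1 and seizure 2 against the saline and seizure conventional libraries, with seizure as a covariate. Per the labels, the study made this comparison for immediate early genes; here it is read for the chaperones. The clearest difference was in microglia. Hspa1a, Dnajb1, Dnajb4, Hsp90aa1 and Dnajb9 were higher there in both conventional libraries than in saline 7, seizure 1 or seizure 2. Act-Seq microglia outside this comparison reached 403 and 530 CPM of Hsp90aa1 (naive 3 and 5) and 168 CPM of Dnajb9 (odor 4). In those libraries, read by the authors' classes, Hspa1a, Dnajb1 and Dnajb4 were at most 7.90, 78.9 and 65.8 CPM. Over 8 classes, 7 of 406 member-class pairs were called (5 higher, 2 lower), against 2.27% of all pairs. At an unadjusted p under 0.05 there were 37 (20 higher), against 11.1% of all pairs, and the median member change was -0.02 on the log2 scale. All 5 that rose were in microglia, among 45 members tested there (3.4% of all genes were called), and both that fell were in astrocytes, among 68 (4.57% of genes).

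Hspa1a was at 0, 5.24 and 7.06 CPM in microglia of saline 7, seizure 1 and seizure 2. After conventional dissociation it was at 181 and 186 CPM in the saline and seizure libraries. Both conventional libraries were high and nearly equal, and all 3 Act-Seq libraries were at or near 0. The counts behind this were 86 UMIs of 469300 against 2 of 633298, a ratio of 58.0 with a 95% exact interval of 15.6 to 487 that covers counting error only. The edgeR log2 rise was 5.77 (SE 0.55, adjusted p 4.30e-11). Hspa1b, its near copy, had 8 UMIs in conventional and 0 in Act-Seq microglia and was too rare to be tested. Dnajb1, whose protein loads clients onto Hspa1a, was at 59.8, 31.5 and 21.2 CPM by Act-Seq and at 327 and 220 CPM after conventional dissociation. The groups did not overlap, and the log2 rise was 2.83 (SE 0.33, edgeR adjusted p 9.11e-09). These 2 calls held under all 12 alternatives.

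Dnajb4, a relative of Dnajb1 whose window above holds a paired unit, was at 49.9, 31.5 and 28.2 CPM by Act-Seq and at 166 and 100 CPM after conventional dissociation. It rose by a log2 of 1.88 (SE 0.36, edgeR adjusted p 0.000308), and the call was lost with DESeq2 (adjusted p 0.161), without saline 7 (0.0711) and without the conventional saline library (0.206). Hsp90aa1 was at 170, 225 and 240 CPM by Act-Seq against 339 and 453 CPM, a log2 rise of 1.13 (SE 0.23, adjusted p 0.00098). That call was lost with DESeq2 (adjusted p 0.142) and without the conventional seizure library (0.0631). Dnajb9 was at 66.5, 47.2 and 70.6 CPM by Act-Seq against 100 and 167 CPM, a log2 rise of 1.25 (SE 0.34, adjusted p 0.0217). It was lost with DESeq2 (0.908), without the 5% of cells with most UMIs (0.0839), without seizure 1 (0.189) and without the conventional seizure library (0.729).

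**Figure D5:**
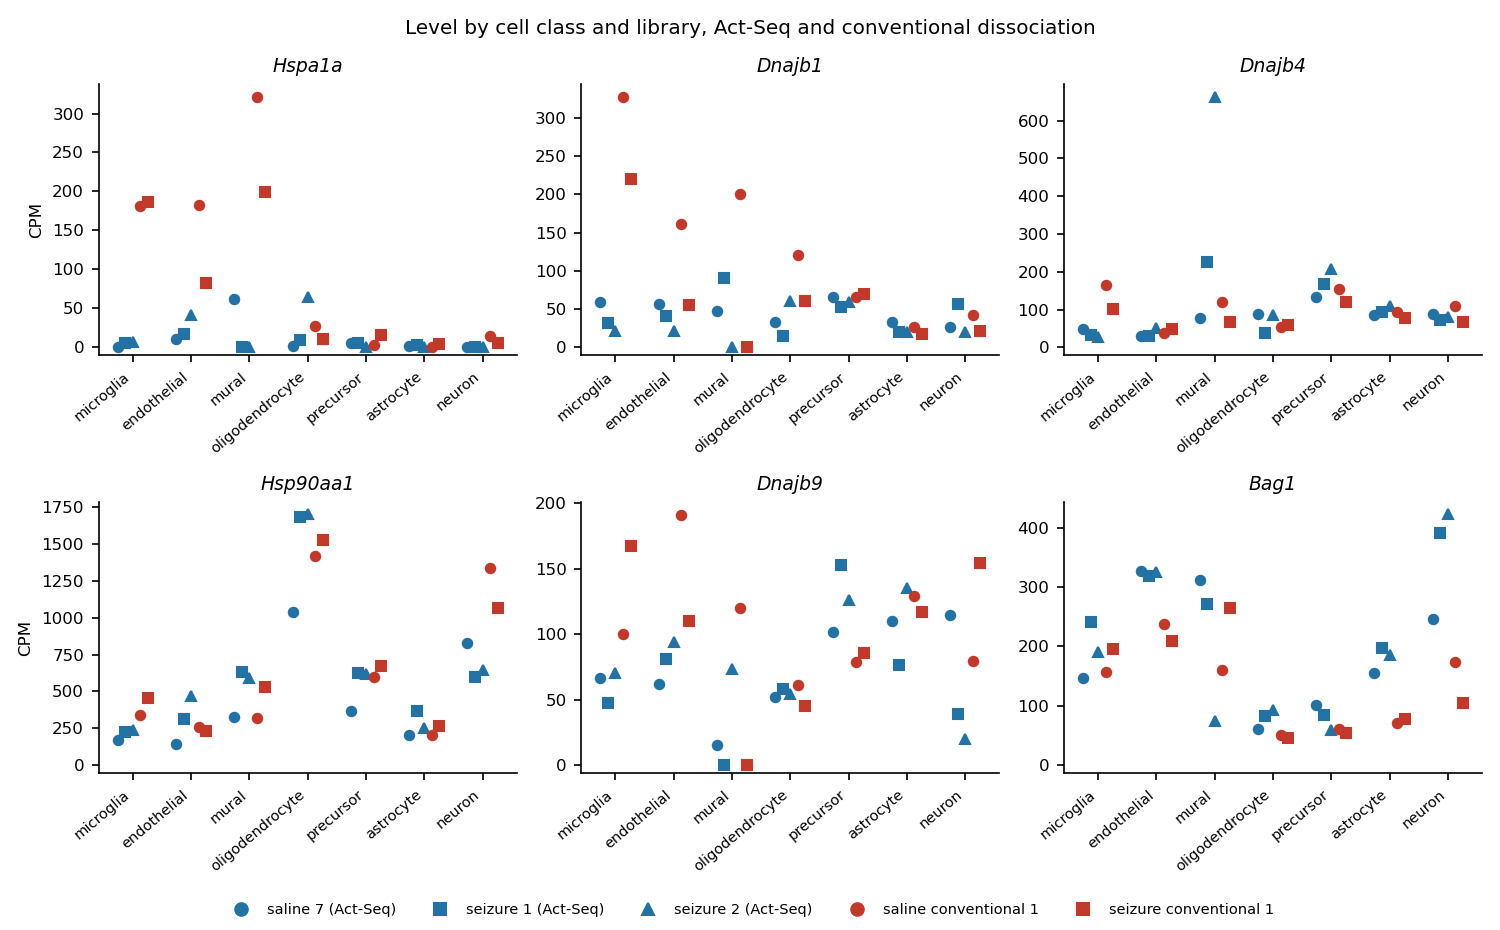
CPM of 6 members in each of the 5 libraries of the dissociation comparison, by class; blue points are Act-Seq libraries and red points conventional ones, with circles for saline and squares and triangles for seizure. In microglia Hspa1a is at 181 and 186 CPM in the conventional libraries and at most 7.06 CPM in the Act-Seq libraries, while in astrocytes it is at most 4.498 CPM; points of mural cells rest on few UMIs.

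Some other inducible members were higher in conventional microglia without passing the test, and others were not higher. Dnaja1 was at 106, 83.9 and 141 CPM by Act-Seq against 208 and 153 CPM (log2 0.87, SE 0.30, edgeR adjusted p 0.122), Hsp90ab1 at 851, 1106 and 1249 against 1390 and 1303 CPM (0.55, SE 0.18, adjusted p 0.103), and Hspa8 at 302, 377 and 459 against 543 and 425 CPM (0.56, SE 0.23, adjusted p 0.247). In these 5 libraries Hsp90ab1 and Dnaja1 did not overlap between methods and Hspa8 did. Hspd1 (0.38, adjusted p 0.708), Hspe1 (-0.33, 0.718), Stip1 (-0.32, 0.787) and Ahsa1 (0.00, 0.998) did not pass either. Hsph1 was at 29.9, 68.2 and 42.3 CPM by Act-Seq against 38.5 and 23.9 CPM, and Bag3 at 29.9, 21.0 and 7.06 against 19.2 and 19.1 CPM. Summed over the 15 members of the list, microglia stood at 2034, 2317 and 2653 CPM by Act-Seq and at 3511 and 3145 CPM after conventional dissociation. Hsp90ab1 is the largest part of this sum. The reticulum chaperones Hspa5 (0.34, adjusted p 0.515) and Hsp90b1 (-0.05, 0.958) did not pass in microglia, nor did the chaperonin subunits Tcp1 (-0.10, 0.960) and Cct2 (0.31, 0.746).

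Microglia of the methods fell largely in different clusters, although the members had been left out of the clustering. Act-Seq microglia were mostly in a cluster led by P2ry12 (192, 147 and 111 cells against 5 and 17), and conventional microglia in a cluster led by Ccl4, Ccl3 and Tnf (175 and 112 cells against 1, 3 and 2). Summed microglia markers were at 54895 to 60991 CPM by Act-Seq and 43821 to 48793 CPM after conventional dissociation, summed neuron markers at 133 to 212 and 296 to 774 CPM, and macrophage markers at 236 to 296 and 253 to 508 CPM; their part in the result was not tested.

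Counted by cell, Hspa1a transcripts were found in a minority of conventional microglia. After thinning each cell to 600 UMIs, 32 of 309 conventional microglia held one, a share of 10.4% (95% exact interval 7.19% to 14.3%), against 2 of 456 Act-Seq microglia, or 0.439% (0.0532% to 1.58%). Unthinned, the shares were 17.2% and 0.439% at median depths of 1406 and 1230 UMIs. Astrocytes, taken as the background class, held one in 1 of 683 conventional cells, or 0.146%, at a median of 1284 UMIs, and in 0 of 1269 Act-Seq cells, which at 600 UMIs a cell allows a share of up to 0.236% of cells with a UMI. Unthinned, these astrocyte shares were 0.293% (2 cells) and 0.315% (4 cells). The thinned share of microglia with Dnajb1 was 13.3% (41 of 309) after conventional dissociation and 2.41% (11 of 456) by Act-Seq. These intervals cover counting error only.

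In the cells of vessels the pattern of Hspa1a was similar in direction but did not pass. In endothelial cells it was at 10.4, 17.4 and 41.9 CPM by Act-Seq and at 183 and 82.7 CPM after conventional dissociation (log2 2.72, SE 0.58, edgeR adjusted p 0.128), and it passed under 3 of 11 alternatives. In mural cells, where it was not tested, it was at 62.5, 0 and 0 against 321 and 199 CPM, on 4 and 14 UMIs. Summed erythrocyte markers in endothelial cells were at 105 to 10829 CPM by Act-Seq and at 16681 to 20643 CPM after conventional dissociation, and their part was not tested. In oligodendrocytes it was at 1.63, 9.24 and 64.0 against 27.8 and 10.6 CPM, with seizure 2 the highest library. In neurons it had 0 UMIs of 494842 by Act-Seq and was at 14.02 and 5.22 CPM after conventional dissociation. In astrocytes it stayed at 0 to 4.498 CPM in all 5 libraries.

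The difference between classes was tested in a fit over the classes with terms for library, class, class by seizure and class by method, chosen after seeing the data. The effect of conventional dissociation on Dnajb1 was larger in microglia than in the mean of 5 other classes by a log2 of 2.38 (edgeR adjusted p 5.72e-06), and that on Dnajb4 by 1.83 (adjusted p 0.00729), where 0.832% of genes were called. Dnajb1 also rose without passing in endothelial cells (log2 1.28, SE 0.45, edgeR adjusted p 0.569) and in oligodendrocytes (1.37, SE 0.39, adjusted p 0.144). In astrocytes, precursors and clustered neurons its log2 change was -0.19, 0.21 and -0.44. The cluster led by Kif5a was not in this fit. Without the clustered neurons, which held few Act-Seq cells, the effect in microglia was larger for Hspa1a by 4.85 (SE 1.07, edgeR adjusted p 0.00145) and for Hsp90aa1 by 0.95 (SE 0.26, adjusted p 0.0352), where 0.906% of genes were called. For Dnajb9 that difference did not pass (1.01, SE 0.37, adjusted p 0.287). In astrocytes the effect differed for Dnajc6 (-3.41, edgeR adjusted p 0.00199), where 2.82% of genes were called, and not for Bag1 (-0.70, adjusted p 0.333). The Dnajc6 effect itself was -2.12 in astrocytes, -0.05 in clustered neurons and 0.52 in oligodendrocytes. The other classes of that mean held few Dnajc6 UMIs, conventional against Act-Seq: 5 and 2 in endothelial cells, 3 and 4 in microglia, 4 and 0 in precursors. The size of the difference therefore rests in part on counts near 0. In clustered neurons the effect of conventional dissociation differed for 7 of 72 members fitted, where 7.71% of genes were called. It was more positive for Dnajc10, Hsp90b1, Hspa13 and Hspa5, and more negative for Bag6, Dnajb1 and Hspa2. Summed astrocyte markers in these clustered neurons were at 2320 to 9784 CPM by Act-Seq and at 515 to 521 CPM after conventional dissociation, and Kif5a at 747 to 1748 and 225 to 235 CPM; their part in the result was not tested.

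Astrocytes had 2 members lower after conventional dissociation. Bag1 was at 156, 198 and 185 CPM by Act-Seq against 71.4 and 78.7 CPM, and fell by 1.138 on the log2 scale (SE 0.20, edgeR adjusted p 0.000349). Dnajc6 was at 31.0, 39.999 and 19.1 CPM by Act-Seq against 8.30 and 4.498 CPM and fell by 2.12 on the log2 scale (SE 0.54, adjusted p 0.0143). Both are higher in cells of the neuron class, and Kif5a, a motor protein gene of neurons, moved with them in astrocytes, from 966 to 1152 CPM by Act-Seq to 143 to 229 CPM. In the main astrocyte cluster alone, an alternative chosen after seeing the data, Bag1 was at 68.7, 118 and 135 against 55.2 and 64.1 CPM (log2 -0.62, SE 0.27, adjusted p 0.473), so the call was lost. Kif5a stood there at 286, 200.4 and 371 against 67.7 and 82.1 CPM, and its part in the result was not tested. Dnajc6 was there at 9.11 to 10.7 CPM by Act-Seq against 8.91 and 5.13 CPM and too rare to be tested. The Dnajc6 call was also lost without saline 7 (adjusted p 0.0773), seizure 1 (0.0668), the conventional seizure library (0.135) or the 5% of cells with most UMIs (0.360). Hsph1 in astrocytes (-0.79, SE 0.26, adjusted p 0.0805) did not pass.

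Summed over all cells of a library, 9 of 81 members were called, where 16.8% of all genes were (21 members against 30.3% of genes at an unadjusted p under 0.05). Hspa1a rose by a log2 of 2.25, Dnajb1 by 0.94, Dnajc10 by 0.93, Hsp90aa1 by 0.71, Dnajb14 by 0.61 and Hspa13 by 0.59, whereas Hspb8 fell by 1.54, Bag1 by 1.11 and Bag3 by 0.86. The makeup of the libraries differed between the methods. Clustered neurons numbered 51, 149 and 32 by Act-Seq against 489 and 274 after conventional dissociation. The cluster led by Kif5a, in seizure 1 and 2 mostly cells of the authors' neuron class, held 699, 648 and 338 cells against 12 and 33. Composition and level cannot be told apart in these sums. Within astrocytes Hspb8 was at 45.2, 37.6 and 45.6 CPM by Act-Seq against 41.5 and 47.2 CPM. In endothelial cells it was at 67.5, 46.5 and 94.3 against 102 and 60.6 CPM, so both overlapped. In clustered neurons, on few UMIs, it was at 17.6, 15.1 and 0 against 1.04 and 2.61 CPM. Cells of no named class are part of the sums over all cells, and their part was not tested. Of the 9 calls, that of Hspb8 held under all 12 alternatives. Without the conventional saline library those of Hspa1a (log2 1.60, adjusted p 0.0883), Dnajb1 (0.71, 0.132) and Hsp90aa1 (0.40, 0.312) were lost, as were those of Dnajb1 (0.69, 0.114) and Hsp90aa1 (0.38, 0.355) without saline 7 and that of Dnajc10 (0.73, 0.0974) without the conventional seizure library. The Hsp90aa1 call was lost under 4 alternatives in all, also without seizure 2 (0.72, 0.112) and without the 5% of cells with most UMIs (0.51, 0.0738). The Bag1 call was lost without the cluster led by Kif5a (-0.62, adjusted p 0.0862) and without the conventional seizure library (-0.82, 0.0682), and those of Bag3, Dnajb14 and Hspa13 were each lost under at least 4 alternatives.

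Of the list of other protein folding genes, 5 of 253 pairs rose and 4 fell in the classes after conventional dissociation. Of all gene-class pairs 2.27% were called, with 3.4% of genes in microglia, 4.57% in astrocytes and 5.03% in neurons. Among those that rose, in microglia, were the stress-response factors Atf4 and Ddit3, by 1.56 (SE 0.24) and 1.68 (SE 0.33), Herpud1 by 0.83 (SE 0.24) and the autophagy receptor gene Sqstm1 by 0.92 (SE 0.26) on the log2 scale. In the same cells Pdia3 fell by 0.68. In astrocytes the prefoldin subunits Pfdn2 and Pfdn5 fell by 1.40 and 0.70. In neurons the small heat shock protein gene Cryab, which the symbol rule does not take in and which glia also express, fell by 3.40. Astrocyte markers were lower there too, at 515 to 521 CPM against 2320 to 9784 CPM by Act-Seq, and their part was not tested.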

How the data were processed

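Drop-seq was run on dissociated medial amygdala. The deposited tables hold UMI counts as whole numbers, a gene a line and a cell a column, with no normalization by the authors, and cell names carry the library and, in the first 2 tables, the authors' class. Per the submitters' processing notes, reads went through bcl2fastq 2.17.1.14 and STAR 2.5.0a on mm10. The sources used here do not give the counting tool, the filters on cells or any use of strand, and genes that overlap may therefore share reads. No doublet was removed.

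Counts were summed per library and class (at least 10 cells) and tested with edgeR 4.0.16 in R 4.3.3 (TMM scaling, filterByExpr, quasi-likelihood F-test, Benjamini-Hochberg adjustment over all genes of a class, threshold 0.05). Each class had 1 fit over 4 groups. The dissociation fit had terms for method and seizure, with 2 residual degrees of freedom. Standard errors (SE) were the log2 fold change divided by the root of F. Clusters of the dissociation table came from scanpy 1.11.5 with leidenalg 0.10.2 at a resolution of 0.8, computed without the members and immediate early genes. The fits were tested on simulated data with 200 changed genes, for the Act-Seq groups as immobilization against naive only. Log2 changes of 1 were recovered at 44.1% in microglia and 66% in astrocytes of the Act-Seq groups. For dissociation the shares were 43.3%, 42.7% and 60.6% in microglia, astrocytes and all cells. Changes of 2 were recovered at 86.3% to 96%, and 4 to 15 unchanged genes were called. The seizure group, with 2 libraries, was not simulated. DESeq2 1.42.0 and other scalings, filters, covariates, cell sets and left-out libraries served as alternatives.

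Text names members past the threshold, 23 members chosen by role, and the 3 members per class with the largest ratio of naive CPM to any other class. Members and lists were chosen with earlier results of these data known. Members named in the odor comparison for a small p were chosen after their values were seen. The 10 members in the authors' neuron table were read from the first table. Some values of the list of other protein folding genes are not reported here.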

Additional observations from a re-analysis of the deposited data

Results flagged for a closer look

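Of 63 groups of 4 or more libraries tested for a single library far from the rest (Dixon's criterion, which chance meets in about 1 of 20 groups), 6 had one. In naive 5, Dnajc15 was at 186.7 CPM in the other cells of the neuron class (44.5 to 70.5 CPM in the other naive libraries), Dnajc30 at 170.4 CPM in neurons (34.1 to 57.7 CPM) and Hspb6 at 85.2 CPM in neurons (2.85 to 13.99 CPM). In immobilization 4, Hspa2 was at 160.8 CPM in astrocytes (273 to 292 CPM in the others) and Hspb3 at 0 CPM in microglia (22.4 to 25.5 CPM). In odor 2, Dnajc19 was at 247.8 CPM in oligodendrocytes (160 to 168 CPM). Naive 5 and immobilization 4 were among the smallest libraries, with 230 and 182 cells. A single UMI there is 43.97 CPM in microglia of immobilization 4, above the Hspb3 level of the other immobilization libraries. In naive 5 it is 42.59 CPM in neurons and 37.33 CPM in the other cells of the neuron class. The values flagged in these classes therefore rest on few UMIs.

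The effect of conventional dissociation differed between classes for the following members, tested as the effect in 1 class minus the mean of the others. In microglia the difference was a log2 of 2.38 for Dnajb1, which also rose without passing in endothelial cells and oligodendrocytes, and 1.83 for Dnajb4 (edgeR adjusted p 5.72e-06 and 0.00729). Without neurons it was 4.85 for Hspa1a and 0.95 for Hsp90aa1 (edgeR adjusted p 0.00145 and 0.0352). Neither of these last members was called in microglia with neurons included. In astrocytes it was -3.41 for Dnajc6 (edgeR adjusted p 0.00199, where 2.82% of genes were called), against a mean that includes classes with few Dnajc6 UMIs. In neurons, where 7.71% of genes were called, it was -1.50 for Bag6 (0.00203), -1.56 for Dnajb1 (0.0431), -1.88 for Hspa2 (0.00771), 1.42 for Dnajc10 (0.00192), 1.11 for Hsp90b1 (0.0116), 1.23 for Hspa13 (0.0351) and 0.88 for Hspa5 (0.0434). The cluster led by Kif5a, which held most seizure cells of the authors' neuron class, was not in this fit. Clustered neurons of the Act-Seq libraries numbered 51, 149 and 32. Summed astrocyte markers in them were at 2320 to 9784 CPM, against 515 to 521 CPM in conventional neurons, and their part was not tested.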

How the results depend on the processing

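No named result changed sign under any alternative that was run. Counts of member-class pairs past the threshold moved as follows. Immobilization against naive went from 1 to 0 with DESeq2 and to 2 with no filter on low counts, and from 0 (without naive 1, immobilization 1 or immobilization 3) to 2 (without naive 2) when 1 library was left out. Odor against naive went from 0 to 2 with no filter and 1 with age as a covariate, and ranged from 0 to 3 with 1 library left out (3 without naive 3, 2 without seizure 1 or seizure 2, 1 without immobilization 4). Seizure against odor went from 0 to 1 with library totals, DESeq2, without libraries under 300 cells and without the 5% of cells with most UMIs, and ranged from 0 to 1 with 1 library left out (1 without naive 2 or naive 3). Immobilization against odor went from 0 to 1 with library totals and 6 with no filter, and from 0 to 1 with 1 library left out (naive 2). Seizure against naive and seizure against immobilization stayed at 0 in all 27 alternatives. The 7 pairs of the dissociation classes became 3 with DESeq2 and 5 to 12 with 1 library left out (12 without seizure 2). The 9 members of the sums over all cells became 3 to 14 (4 without saline 7, 14 without seizure 1, 3 without the conventional saline library). The cause of these moves was not tested. The 14 members with a class mean at least 2-fold above others became 13 with naive libraries of at least 300 cells, where 62 of 79 members kept their highest class, and 10.4% of microglia with Hspa1a became 12.7% when thinned to 1000 UMIs.

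With the replicate number as a block, odor against naive gave 1 pair and not 0, and no other call changed. Same-numbered libraries correlated at -0.10 to 0.15, with class medians of 0.0024 to 0.043, against -0.0051 to 0.0032 for other pairs. Whether the numbers pair libraries cannot be told from these values. No paired analysis was possible because the conventional libraries share only number 1 with the Act-Seq libraries. Depth limits these results: microglia gave 22741 to 294647 UMIs per library, so members near 1 UMI per library could not be compared.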
